A study of Mus musculus with 6 samples.

Results

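*Pdk2*, *Mpc2* and *Idh3b* are among 31 genes that carry pyruvate into the mitochondrion, oxidize it to acetyl-CoA and run the tricarboxylic acid (TCA) cycle, and their transcripts were measured here in kidneys of mice that overexpress adiponectin. The 31 genes were chosen by name and function, with earlier results of these data known, and succinate dehydrogenase was left out of the choice. All 31 were found by Ensembl identifier among the 54532 genes of the deposited table, and all 31 were among the 16017 genes that passed a filter on low counts. Whole kidneys came from KsprtTA mice, which lack the adiponectin transgene (Control), and from KsprtTA/TRE-Adiponectin mice (KSPAPN), in which doxycycline switches on adiponectin in the epithelial cells of the tubule, from its proximal segments down to the collecting duct. Both groups carried KsprtTA, and both ate chow with doxycycline at 600 mg/kg for 4 days. The sample labels call the Control genotype WT, the methods describe male mice on a C57BL/6 background, and no age is given for these mice in the sources used here. RNA of 3 mice was pooled for each library, with 3 libraries per group, and errors over libraries therefore describe pools and not single mice.

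Pyruvate enters mitochondria through a carrier made of Mpc1 and Mpc2. The pyruvate dehydrogenase complex then turns it into acetyl-CoA, and this step is switched off by the kinases Pdk1 to Pdk4 and switched on again by the phosphatases Pdp1 and Pdp2. The TCA cycle oxidizes acetyl-CoA to carbon dioxide and delivers reducing equivalents to the respiratory chain. The proximal tubule of the kidney is rich in mitochondria, takes most of its energy from oxidative metabolism, and can also turn pyruvate into glucose, for which pyruvate is carboxylated instead of oxidized.

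The label of the groups was checked with *Adipoq*, which had 2, 0 and 2 counts in the Control libraries and 24629, 17483 and 26811 in the KSPAPN libraries. Between 17183358 and 20871173 reads were counted on genes per library, which left the depth behind the members high: apart from *Ogdhl*, with 18 to 73 counts, no member had fewer than 88 counts in any library, and the highest count was 22571. Levels are given as FPKM (fragments per kilobase of gene length, scaled to the size of the library). The gene lengths the authors used are not stated, so levels of different genes can be set side by side only roughly. Differences are given as the log2 fold change of KSPAPN over Control from the counts, with its standard error (SE). The counts were compared with the two-sided quasi-likelihood test of edgeR, and p-values were adjusted over all 16017 genes by the Benjamini-Hochberg method.

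In Control, 6 of the 31 genes were above 100 FPKM, 19 lay between 10 and 100, and 6 were under 10. *Mdh1*, the cytosolic malate dehydrogenase, was the most abundant at 470 ± 34.5 FPKM (SD, n = 3). *Ogdhl*, a relative of the 2-oxoglutarate dehydrogenase subunit Ogdh, was the least abundant at 0.674 ± 0.316 FPKM.

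**Figure D1:**
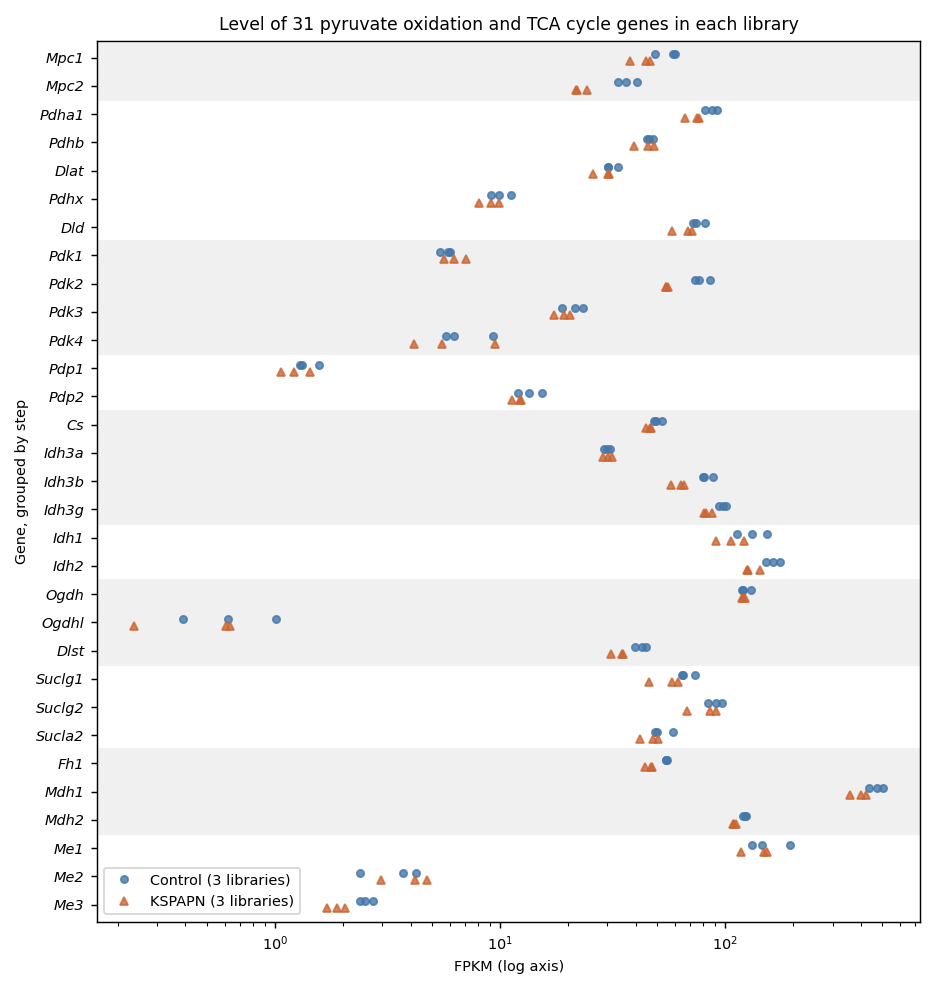
Level of each of the 31 genes in each library, in FPKM on a log axis, with circles for the 3 Control libraries and triangles for the 3 KSPAPN libraries. Shading separates the steps of the pathway, and most genes show the triangles at or to the left of the circles.

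Pyruvate oxidation and TCA cycle transcripts were on the low side in KSPAPN. The log2 fold change was below 0 for 28 of the 31 genes, with a median of −0.18 over the 31 and 0.01 over all genes tested. *Mpc2*, *Pdk2* and *Idh3b* fell at an adjusted p under 0.05, and no member rose. These 3 of 31 stand beside 2.25% of all genes that were lower by that rule, and the count of 0 higher stands beside 0.393%. At an unadjusted p under 0.05, 13 members were lower, against 11.2% of all genes, and 0 were higher, against 7.52%. All 3 KSPAPN libraries lay below all 3 Control libraries for 15 members, against 13.1% of all genes, and above them for 0, against 11.4%. In whole-kidney RNA, fewer cells of a type and less RNA per cell cannot be told apart.

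The calls depended on single libraries. Without Control replicate 1 or without KSPAPN replicate 3, 0 members had an adjusted p under 0.05, and 9 and 10 of them were lower at an unadjusted p under 0.05. Over all genes the lower calls also dropped, from 361 of 16017 to 34 of 16510 and 60 of 16408. Without KSPAPN replicate 2 the adjusted count was 1, and without KSPAPN replicate 1 the unadjusted count was 8. Calls over all genes at an unadjusted p were not counted in these fits, so the unadjusted counts have no share beside them.

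**Figure D2:**
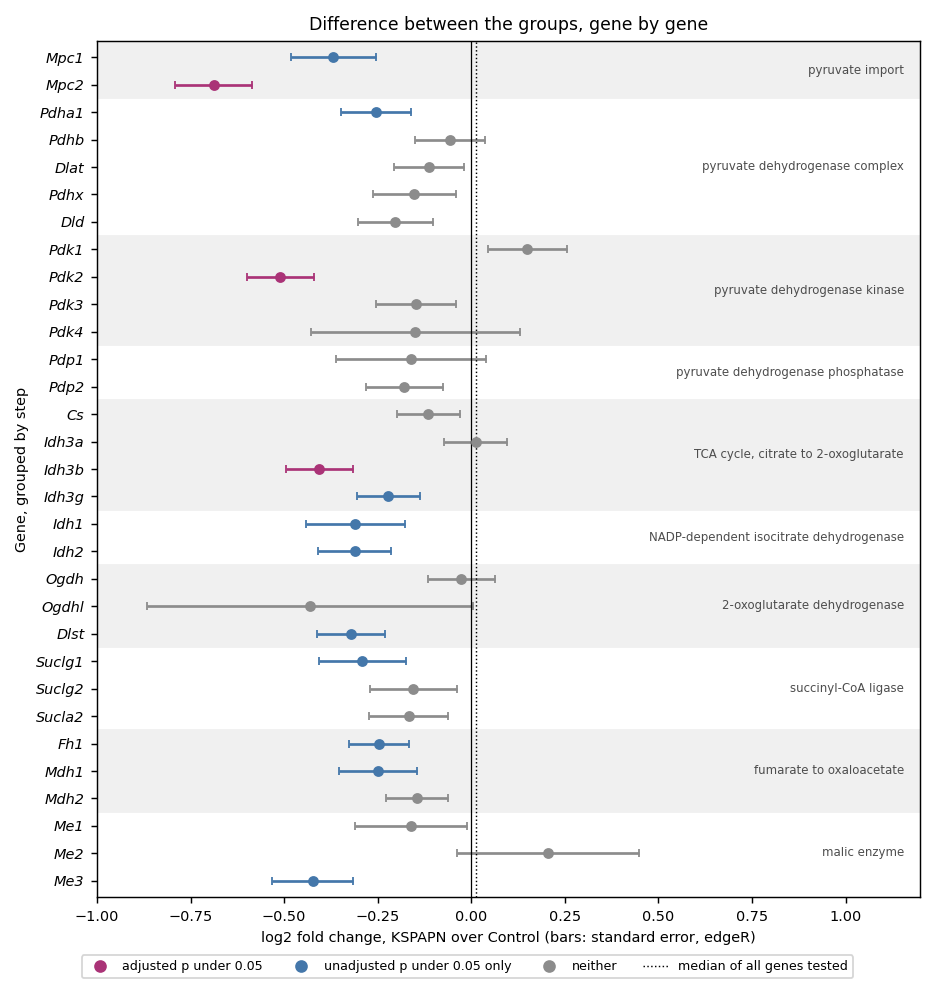
log2 fold change of KSPAPN over Control for each gene, with bars of 1 standard error from edgeR, coloured by the p-value each gene reached. Points left of the solid line at 0 are lower in KSPAPN, and the dotted line is the median of all genes tested, 0.01.

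The 3 genes that fell lie on different chromosomes, and their promoters are shown because each had an adjusted p under 0.05. Whether the 3 genes share any regulation was not tested. The sequences were taken from RefSeq (GRCm38.p6) around the annotated start, read 5′ to 3′ on the strand of the gene. Capitals mark the letters CCAAT, the core that NF-Y binds, and CCGGAAG, an ETS core of the kind that GABP binds, on either strand. *Mpc2* is shown at chr1:165461010-165461309 on the plus strand, *Pdk2* at chr11:95041322-95041621 on the minus strand, as 1 of 2 listed promoters, and *Idh3b* at chr2:130284402-130284701 on the minus strand.
Mpc2: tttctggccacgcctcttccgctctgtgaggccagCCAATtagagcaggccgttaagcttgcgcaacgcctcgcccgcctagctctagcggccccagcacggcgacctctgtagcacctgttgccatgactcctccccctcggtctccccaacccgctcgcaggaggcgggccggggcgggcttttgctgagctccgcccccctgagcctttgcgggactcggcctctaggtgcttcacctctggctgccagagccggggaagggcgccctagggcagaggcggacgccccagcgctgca
Pdk2: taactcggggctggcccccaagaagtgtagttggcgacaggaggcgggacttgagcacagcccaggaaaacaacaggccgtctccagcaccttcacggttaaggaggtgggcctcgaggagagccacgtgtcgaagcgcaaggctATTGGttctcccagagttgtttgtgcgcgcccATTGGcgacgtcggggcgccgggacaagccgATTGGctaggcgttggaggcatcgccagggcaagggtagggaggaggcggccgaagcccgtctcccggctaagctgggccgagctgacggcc
Idh3b: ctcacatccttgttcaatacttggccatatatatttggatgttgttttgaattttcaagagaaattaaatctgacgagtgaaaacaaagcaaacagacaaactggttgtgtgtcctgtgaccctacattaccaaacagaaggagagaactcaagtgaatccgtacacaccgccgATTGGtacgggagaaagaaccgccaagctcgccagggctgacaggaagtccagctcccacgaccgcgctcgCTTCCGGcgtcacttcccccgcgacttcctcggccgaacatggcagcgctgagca

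The *Pdk2* window holds CCAAT on the opposite strand 105, 73 and 42 bases upstream of the RefSeq start. The *Mpc2* window holds it once, 215 bases upstream, and the *Idh3b* window once, 76 bases upstream, together with CCGGAAG at 5 bases. RefSeq and GENCODE place the starts differently, by 623 bases for *Mpc2*, 96 for *Idh3b* and 17 for *Pdk2*, and the matches named for *Mpc2* and *Idh3b* lie inside the gene as GENCODE draws it. RefSeq promoters were matched for 28 of the 31 genes, which have 38 promoters, and none was matched for *Idh3a*, *Me2* and *Pdp1*. CCAAT was in 23 of these 38 (60.5%) and in 37.4% of the 32851 mouse promoters, and GGGCGG, the Sp core, was in 65.8% and 35.7%. CCGGAAG was in 4 of the 38 (*Dlst*, *Idh3b*, *Idh3g* and *Mpc1*) and in 8.86% of all promoters. AAGGTCA, the core of estrogen-related receptors, was in 1 member promoter, that of *Ogdh*, and in 4.72% of all. GCGCANGCG, the NRF1 core, was in 10.5% and 6.25%, and its 4 member promoters belong to *Dld*, *Ogdh* and *Sucla2*. TGACGTCA, the CREB site, was in 10.5% and 1.79%, and its 4 member promoters belong to *Mdh2* and *Ogdh* only. A PPAR direct repeat, AGGTCA repeated after a gap of 1 base, was in 0 member promoters and in 0.0396% of all. Both strands were searched for every motif, promoters of 1 gene can overlap, and the CCAAT, Sp, CREB and PPAR searches were added after values of the genes had been seen. A match is a description of the letters only.

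The pyruvate carrier was the step with the largest median difference, −0.53 over its 2 genes. *Mpc2* (ENSMUSG00000026568, chromosome 1, 165460637 to 165481214), the subunit that needs Mpc1 to transport pyruvate, was at 40.4, 33.3 and 36.2 FPKM in Control and 24.3, 21.7 and 21.9 in KSPAPN. Every KSPAPN library was below every Control library, and the transcript fell by 38.0% (log2 fold change −0.69, SE 0.10, edgeR adjusted p = 0.0113). Without Control replicate 1 or KSPAPN replicate 3 the edgeR adjusted p was 0.0665 and 0.0651. The log2 fold change was −0.79 with a trend against GC content and length removed. *Mpc1*, the partner subunit, was at 48.8, 59.7 and 58.5 FPKM in Control and 44.6, 46.6 and 37.6 in KSPAPN. The groups did not overlap, and the difference of −0.37 (SE 0.11) had an edgeR adjusted p of 0.118. With the GC and length trend removed, the difference was −0.26. Reads of *Mpc1* are less certain to be its own, since 18.8% of its stretches of 100 bases are shared with the pseudogene *Mpc1-ps*, which had 279 to 474 counts and a log2 fold change of −0.57 (SE 0.16, edgeR adjusted p = 0.0920), and 23.1% of its exon bases overlap *4930506C21Rik*, which had 27 to 74 counts.

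The catalytic subunits of the pyruvate dehydrogenase complex differed less. *Pdha1*, the E1 alpha subunit that the kinases phosphorylate, was at 87.6, 91.8 and 81.5 FPKM in Control and 66, 76.7 and 75.1 in KSPAPN. All 3 KSPAPN libraries were lower, with a log2 fold change of −0.26 (SE 0.09, edgeR unadjusted p = 0.0208, adjusted p = 0.179), and 16.1% of its exon bases overlap *Map3k15*, which had 627 to 876 counts and a log2 fold change of −0.08. *Pdhb*, the E1 beta subunit, was nearly level at 46.3 ± 1.51 FPKM in Control and 44.4 ± 4.59 in KSPAPN (−0.06, SE 0.09). *Dlat*, the E2 acetyltransferase, differed by −0.11 (SE 0.09), and *Pdhx*, which tethers the E3 enzyme, by −0.15 (SE 0.11), both with overlapping groups. *Dld*, the E3 dehydrogenase that this complex shares with 2-oxoglutarate dehydrogenase, was at 72.3, 81.6 and 74.4 FPKM in Control and 58.2, 71.2 and 68.2 in KSPAPN. Its groups did not overlap, with a difference of −0.20 (SE 0.10, edgeR unadjusted p = 0.0678), which was −0.11 without KSPAPN replicate 1.

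Among the kinases that switch off pyruvate dehydrogenase, the most abundant one fell. *Pdk2* (ENSMUSG00000038967, chromosome 11, 95026258 to 95041354) was at 85.4, 73.6 and 76.3 FPKM in Control and 55.5, 54.5 and 54.5 in KSPAPN. The KSPAPN libraries lay close together and below all Control libraries, and the transcript fell by 29.8% (log2 fold change −0.51, SE 0.09, edgeR adjusted p = 0.0210). The edgeR adjusted p was 0.110 without Control replicate 1, 0.0610 without KSPAPN replicate 2 and 0.103 without KSPAPN replicate 3. It was 0.0563 with total counts only, and the log2 fold change was −0.39 with a trend against GC content and length removed. *Pdk4*, the isoform known to be induced by fasting and fatty acids, was at 5.76, 6.24 and 9.33 FPKM in Control and 4.16, 5.50 and 9.54 in KSPAPN. Its libraries spread more than those of the other kinases, the groups overlapped, and its difference of −0.15 had an SE of 0.28. *Pdk1*, a target of hypoxia signalling, differed by 0.15 (SE 0.11) and *Pdk3* by −0.15 (SE 0.11), both with overlapping groups. The 4 kinases together came to 112 ± 3.25 FPKM in Control and 86.6 ± 4.41 in KSPAPN. *Pdk2* made up 69.7% ± 3.78 of this sum in Control and 63.4% ± 3.68 in KSPAPN, and *Pdk1* 5.11% ± 0.377 and 7.31% ± 0.569.

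**Figure D3:**
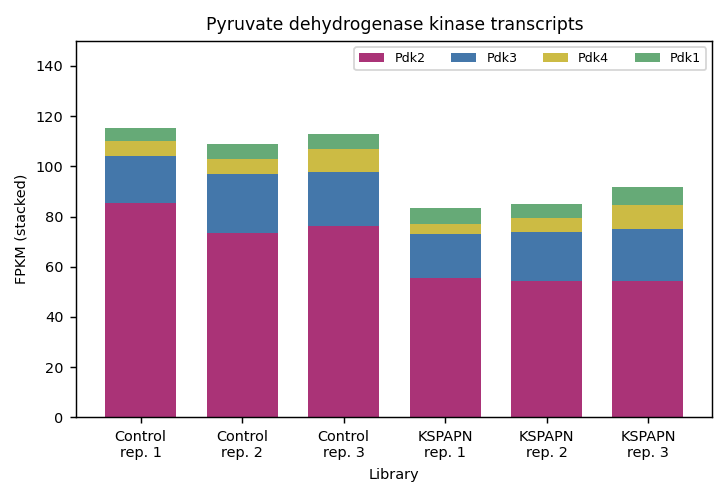
FPKM of the 4 pyruvate dehydrogenase kinases stacked for each library, from 0. The sum is between 109 and 115 FPKM in Control and between 83.3 and 91.6 in KSPAPN, and the lowest segment, *Pdk2*, carries most of the gap.

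The phosphatases that reverse the kinases were lower in abundance. *Pdp2* was at 13.6 ± 1.67 FPKM in Control and 12 ± 0.643 in KSPAPN, and *Pdp1* at 1.39 ± 0.157 and 1.24 ± 0.182. Their log2 fold changes were −0.18 (SE 0.10) and −0.16 (SE 0.20), with overlapping groups. *Pdp2* held 90.7% ± 0.363 of the phosphatase FPKM in Control and 90.6% ± 1.71 in KSPAPN.

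In the first span of the cycle, subunits of 1 enzyme differed from each other. *Cs*, citrate synthase, was at 52.2, 48.3 and 49.1 FPKM in Control and 44.5, 46.2 and 47.0 in KSPAPN. These groups did not overlap, but the difference was −0.11 (SE 0.08, edgeR unadjusted p = 0.201), or −0.05 with total counts only. The NAD-dependent isocitrate dehydrogenase of the cycle has a catalytic alpha subunit and the regulatory subunits beta and gamma. *Idh3b* (ENSMUSG00000027406, chromosome 2, 130279309 to 130284547), the beta subunit, was at 88.3, 79.7 and 80.3 FPKM in Control and 57.6, 63.8 and 65.3 in KSPAPN. The groups did not overlap, and the transcript fell by 24.5% (log2 fold change −0.41, SE 0.09, edgeR adjusted p = 0.0451). This call was lost whichever library was left out, with an edgeR adjusted p from 0.0591 to 0.206, and it was 0.0514 with RLE factors. *Idh3g*, the gamma subunit, was at 101, 93.6 and 98 FPKM in Control and 80.5, 87.5 and 82.0 in KSPAPN, without overlap (−0.22, SE 0.08, edgeR unadjusted p = 0.0249, adjusted p = 0.193). The log2 difference was −0.14 with a trend against GC content and length removed. *Idh3a*, the alpha subunit, was at 28.9, 29.8 and 30.9 FPKM in Control and 28.6, 30.1 and 31.4 in KSPAPN, with a log2 fold change of 0.01 (SE 0.08).

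The NADP-dependent isocitrate dehydrogenases were both more abundant than the subunits of the NAD-dependent enzyme. *Idh2*, the mitochondrial form, was at 176, 163 and 151 FPKM in Control and 125, 143 and 126 in KSPAPN, without overlap (−0.31, SE 0.10, edgeR unadjusted p = 0.00873, adjusted p = 0.120). The log2 difference was −0.17 with the GC and length trend removed. *Idh1*, the cytosolic and peroxisomal form, was at 131, 153 and 113 FPKM in Control and 91.0, 122 and 106 in KSPAPN. Its difference was also −0.31, with a larger SE of 0.13, and KSPAPN replicate 2 lay above Control replicate 3 (edgeR unadjusted p = 0.0402). It was −0.19 without Control replicate 2 and −0.20 without KSPAPN replicate 1.

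The 2-oxoglutarate dehydrogenase complex makes succinyl-CoA. *Ogdh*, its E1 subunit, was level at 123 ± 6.52 FPKM in Control and 120 ± 1.49 in KSPAPN, with a log2 fold change of −0.03 (SE 0.09). *Dlst*, its E2 succinyltransferase, was at 42.6, 44.3 and 39.7 FPKM in Control and 31.1, 34.7 and 35.2 in KSPAPN. All KSPAPN libraries were lower, with a difference of −0.32 (SE 0.09, edgeR unadjusted p = 0.00534, adjusted p = 0.0963), and DESeq2 gave an adjusted p of 0.0350. With a library left out the edgeR adjusted p was 0.136 to 0.296, and 3 of the 16 alternatives gave an adjusted p under 0.05. *Ogdhl* was too scarce to compare, with a difference of −0.43 and an SE of 0.44.

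Succinyl-CoA ligase joins the common subunit Suclg1 with either Suclg2, which makes GTP, or Sucla2, which makes ATP. *Suclg1* was at 64.3, 73.5 and 65.0 FPKM in Control and 45.8, 61.7 and 57.9 in KSPAPN, without overlap (−0.29, SE 0.12, edgeR unadjusted p = 0.0307, adjusted p = 0.214). KSPAPN replicate 1 was the lowest of the 6, and without it the difference was −0.16. *Suclg2* differed by −0.16 (SE 0.12) and *Sucla2* by −0.17 (SE 0.11), both with overlapping groups, and 11.9% of the stretches of *Suclg2* are shared with *Gm15163*, which had 11 to 24 counts.

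At the end of the cycle, fumarase and both malate dehydrogenases were lower in every KSPAPN library than in every Control library. *Fh1*, fumarase, was at 55.2, 54.5 and 54.5 FPKM in Control and 44.1, 46.6 and 47.2 in KSPAPN, a difference of −0.25 (SE 0.08, edgeR unadjusted p = 0.0116, adjusted p = 0.137). *Mdh1*, which works in the cytosol, was at 474, 503 and 434 FPKM in Control and 359, 421 and 402 in KSPAPN (−0.25, SE 0.10, edgeR unadjusted p = 0.0359, adjusted p = 0.231). *Mdh2*, the mitochondrial enzyme, was at 123, 121 and 122 FPKM in Control and 110, 109 and 111 in KSPAPN. The libraries of *Mdh2* lay close together within each group, with a difference of −0.15 (SE 0.08, edgeR unadjusted p = 0.113). It was −0.03 with the GC and length trend removed and −0.08 with total counts only.

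Malic enzymes turn malate back into pyruvate, and the cytosolic Me1 supplied most of their transcripts, 96.2% ± 1.28 of the summed FPKM in Control and 95.9% ± 0.995 in KSPAPN. *Me1* was at 132, 193 and 146 FPKM in Control and 118, 154 and 149 in KSPAPN, with overlapping groups (−0.16, SE 0.15). Of its stretches of 100 bases, 14.5% are shared with 2 other genes, among them *Gm7049*, which had 2 to 5 counts. *Me3*, a mitochondrial NADP-dependent form, was at 2.73, 2.5 and 2.37 FPKM in Control and 1.71, 1.89 and 2.05 in KSPAPN. Its groups did not overlap, with a difference of −0.42 (SE 0.11, edgeR unadjusted p = 0.00273, adjusted p = 0.0716) and an adjusted p of 0.0399 by DESeq2. The edgeR adjusted p was 0.110 to 0.276 with a library left out, and 4 of the 16 alternatives gave an adjusted p under 0.05. *Me2*, the mitochondrial NAD-dependent form, had the highest log2 fold change of the 31, 0.20, with an SE of 0.24 and overlapping groups.

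Ratios within a library do not depend on the scaling of that library, but they can carry a trend against GC content and length. That trend was not removed from the ratios. For 12 pairs of isoenzymes or partner subunits, the log2 ratios of FPKM were compared with a two-sided exact permutation test. It was run over 20 arrangements and can give no p under 0.1. Groups did not overlap for 2 pairs, both at an exact p = 0.1 and at 0.6 after adjustment over the 12 pairs. The ratio of *Pdk1* to *Pdk2* was 0.0632, 0.0795 and 0.0783 in Control and 0.113, 0.104 and 0.130 in KSPAPN, a log2 difference of 0.65. The ratio of *Idh2* to *Idh3a* was 6.08, 5.47 and 4.89 in Control and 4.36, 4.75 and 4.01 in KSPAPN, a log2 difference of −0.32. In the fit of counts with the GC and length trend removed, *Pdk1* and *Pdk2* differed between the groups by 0.05 and −0.39. *Idh2* and *Idh3a* differed by −0.17 and 0.01 in that fit. *Mpc1* to *Mpc2* differed by 0.32, *Pdk3* to *Pdk2* by 0.36 and *Me2* to *Me3* by 0.64, all with overlapping groups. *Suclg2* to *Sucla2*, *Idh2* to *Idh1* and *Pdp2* to *Pdp1* differed by less than 0.01 between the means.

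A further 5 pairs of subunits were picked after their values had been seen, and are given without a test. The ratio of *Idh3b* to *Idh3a* was 3.05, 2.67 and 2.60 in Control and 2.01, 2.12 and 2.08 in KSPAPN. *Idh3g* to *Idh3a* was 3.49, 3.14 and 3.17 in Control and 2.81, 2.91 and 2.61 in KSPAPN. For both pairs the KSPAPN libraries lay below the Control libraries, by −0.42 and −0.23 on the log2 scale. *Pdha1* to *Pdhb* differed by −0.20, *Dlst* to *Ogdh* by −0.30 and *Suclg1* to *Suclg2* by −0.14, each without overlap.

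**Figure D4:**
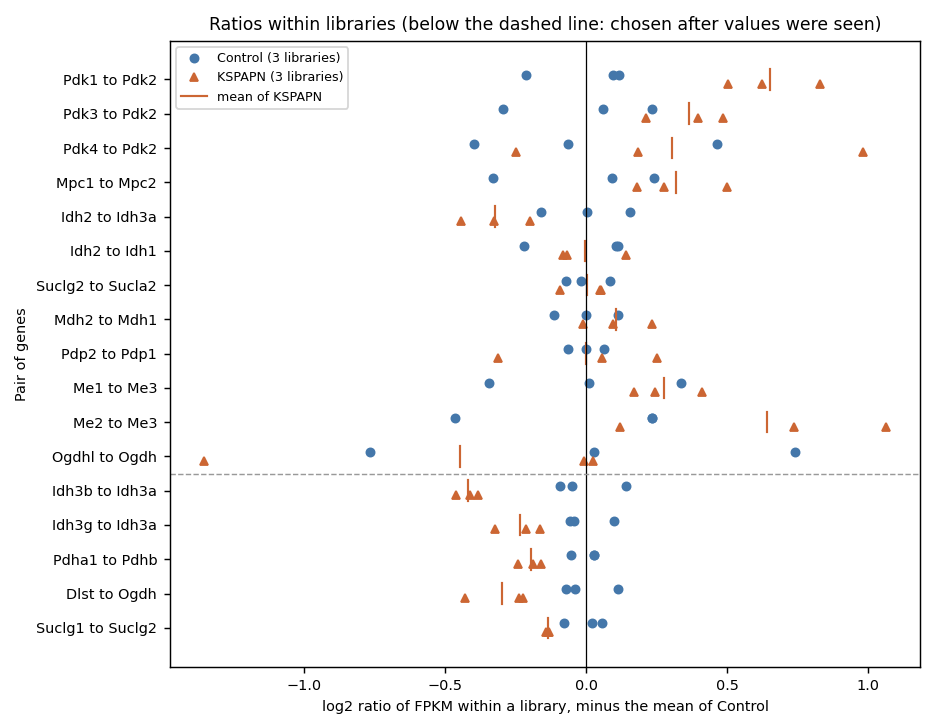
log2 ratio of the FPKM of 2 genes within each library, minus the mean ratio of the 3 Control libraries, for the 12 pairs tested (above the dashed line) and the 5 pairs chosen after values were seen (below it). Circles are Control libraries, triangles KSPAPN libraries, and a short line marks the KSPAPN mean, which is 0.65 for *Pdk1* to *Pdk2* and −0.42 for *Idh3b* to *Idh3a*.

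The libraries of a group were not alike over the 31 genes. KSPAPN replicate 1 was the lowest of the 6 libraries for 20 members, and Control replicate 2 the highest for 16. The median difference from the Control mean over the members was −0.29 in KSPAPN replicate 1, −0.14 in replicate 2 and −0.15 in replicate 3, and in the Control libraries it ran from −0.03 to 0.07. Without KSPAPN replicate 1 the median log2 fold change of the members was −0.13. The other members had their lowest value in a different library. For *Mpc2*, *Pdk2*, *Pdp1*, *Ogdh*, *Ogdhl* and *Mdh2* it was KSPAPN replicate 2, and for *Mpc1* and *Idh2* KSPAPN replicate 3. For *Pdk1*, *Idh3a* and *Me2* it was a Control library.

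**Figure D5:**
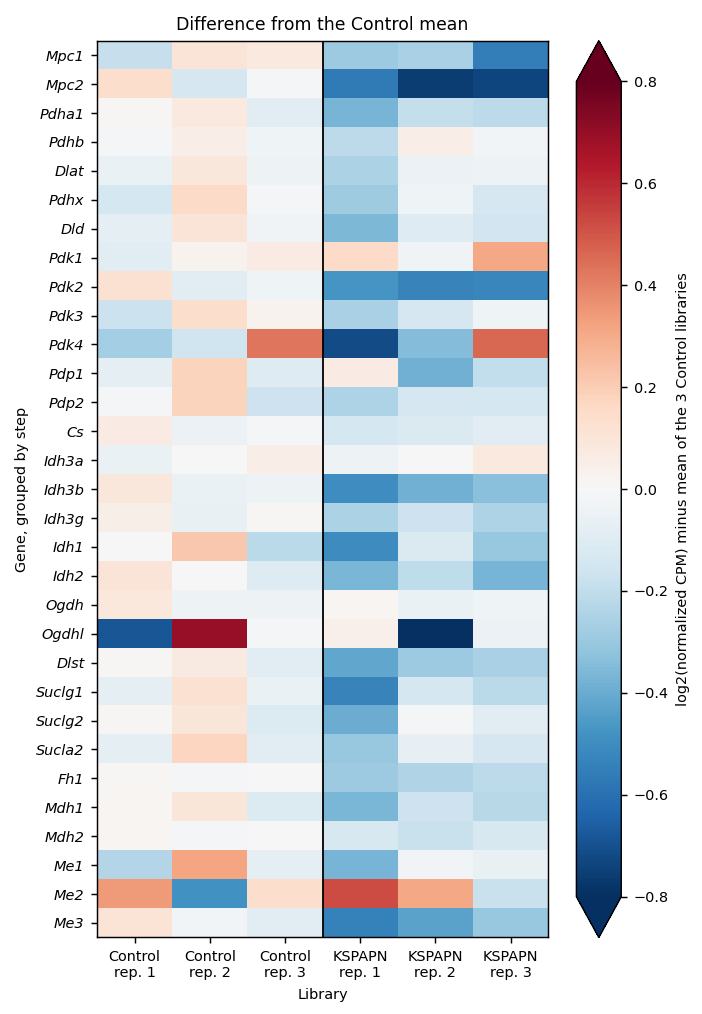
Difference of each gene in each library from the mean of the 3 Control libraries, in log2 of counts normalized to library size, with blue for lower and red for higher and the colour scale ending at −0.8 and 0.8. The KSPAPN columns are blue for most genes, and the column of KSPAPN replicate 1, with a median of −0.29, is the darkest.

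Of 29 further genes around the pathway, 23 had a log2 fold change below 0, with a median of −0.22. At an adjusted p under 0.05, 3 were lower and 1 was higher, beside 2.25% and 0.393% of all genes. At an unadjusted p under 0.05, 13 were lower and 2 higher, beside 11.2% and 7.52%. *Sdhb*, the iron-sulfur subunit of succinate dehydrogenase, fell from 146 ± 3.16 to 101 ± 4.48 FPKM (−0.53, SE 0.08, edgeR adjusted p = 0.0138). *Ldha*, a lactate dehydrogenase subunit, fell from 208 ± 20.5 to 137 ± 7.14 FPKM (−0.60, SE 0.10, edgeR adjusted p = 0.0176). *Ldhb*, another such subunit, was more abundant and level, at 818 ± 6.06 FPKM in Control and 830 ± 67.5 in KSPAPN (0.03, SE 0.10). *Slc25a10*, the mitochondrial dicarboxylate carrier, fell with a log2 fold change of −0.46 (SE 0.11, edgeR adjusted p = 0.0498). *Pck1*, which makes phosphoenolpyruvate from oxaloacetate in gluconeogenesis, rose from 853, 931 and 1366 FPKM in Control to 2256, 1818 and 2137 in KSPAPN (0.99, SE 0.18, edgeR adjusted p = 0.0248). *Pcx*, pyruvate carboxylase, which makes oxaloacetate from pyruvate, was at 213, 211 and 228 FPKM in Control and 283, 242 and 273 in KSPAPN, without overlap (0.30, SE 0.10, edgeR unadjusted p = 0.0168, adjusted p = 0.162). None of these 4 calls held without Control replicate 1, Control replicate 2 or KSPAPN replicate 3, when 0 of the 29 genes were called in either direction.

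Other genes around the cycle lay on the low side as well. *Aco1*, the cytosolic aconitase, differed by −0.31 (SE 0.09, edgeR adjusted p = 0.103). *Sdha* and *Sdhd* differed by −0.28 and −0.31, both at an unadjusted p under 0.05. The aspartate aminotransferases *Got1* and *Got2* differed by −0.22 and −0.36, the aspartate and glutamate carrier *Slc25a13* by −0.30 and the lipoic acid synthase *Lias* by −0.34. *D2hgdh*, which oxidizes D-2-hydroxyglutarate, differed by −0.30, and *Adhfe1*, which forms it from 4-hydroxybutyrate and 2-oxoglutarate, by −0.46. *Glud1*, glutamate dehydrogenase, was level at −0.02.

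Markers of the cell types a whole kidney holds were read in the same libraries, with their levels summed per list. Of 12 proximal tubule markers, 11 had a log2 fold change below 0, with a median of −0.24, and their summed level was 25558 to 37002 FPKM in Control and 18963 to 29606 in KSPAPN, most of it *Kap*. *Slc22a6* (−0.46, edgeR adjusted p = 0.0388) and *Miox* (−0.60, edgeR adjusted p = 0.0268) fell. Of 11 markers of the thick ascending limb, distal nephron and collecting duct, 4 were below 0, with a median of 0.10 and sums of 1446 to 1643 and 1408 to 1944 FPKM, and *Slc12a1* rose (0.52, edgeR adjusted p = 0.0437). All 6 podocyte markers were above 0, with a median of 0.32 and sums of 39.6 to 60.6 and 56.6 to 78.2 FPKM. The endothelial markers had a median of 0.08 and sums of 31.5 to 39.3 and 31.9 to 40.2 FPKM, and the immune markers sums of 3.50 to 3.79 and 3.12 to 4.05 FPKM. The part of these differences in the values of the members was not tested.

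The tissue label was checked in the same way, because the labels' text on RNA extraction speaks of liver while the tissue is given as kidney. *Slc34a1*, a proximal tubule phosphate transporter, was between 980.2 and 1368 FPKM, whereas the hepatocyte genes *Tat* and *Cyp7a1* stayed under 0.1 FPKM and *Alb* between 0.275 and 4.46. *Apoa2*, another hepatocyte gene, was between 5.28 and 10.3 FPKM. *Ttr*, from the same hepatocyte list, was at 128, 145 and 69.6 FPKM in Control and 50.3, 63.4 and 38.3 in KSPAPN, and it fell (−1.17, edgeR adjusted p = 0.0388). The hepatocyte list summed to 77.8 to 155 FPKM in Control and 49.6 to 78.2 in KSPAPN. Adipocyte markers other than *Adipoq* summed to under 1 FPKM in every library, between 0.308 and 0.834.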

How the data were processed

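Whole-kidney RNA of 6 libraries (3 Control, 3 KSPAPN) was enriched for mRNA with oligo(dT) beads by the authors' provider. The authors deposited raw read counts per gene, without normalization, and FPKM, scaled by gene length and library size with a total that is not stated. The submitters' processing notes name STAR 2.5, TopHat, HTSeq 0.6.1, DESeq2 and edgeR without roles. Genome build and annotation were not given in the sources used here, nor was strandedness, so antisense overlaps are uncertain. Symbols and coordinates came from GENCODE M21 (GRCm38), matched for 54495 of 54532 identifiers.

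Counts were compared in R 4.3.3 with edgeR 4.0.16 (TMM, minimum count 10, minimum total 15, quasi-likelihood test, all 6 libraries, no covariate), which left 16017 genes. SE was the log2 fold change over the square root of F. Ratios of FPKM were compared with exact permutation tests. Alternatives were DESeq2 1.42.0, RLE factors, total counts only, no filter, normalization without mitochondrially encoded genes and *Adipoq*, limma 3.58.1 on log2(FPKM + 1) and log2(FPKM + 0.1), the replicate number as a block, removal of a GC and length trend, and each library left out. Methods were tested on simulated data. Tables and plots were made with Python 3.11.15, pandas 2.3.3 and matplotlib 3.10.9.

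The members and lists were chosen with earlier results of these data known. Named with all library values are members at an adjusted p under 0.05, or at an unadjusted p under 0.05 without overlap of the groups. Other genes of the list around the pathway are named at an unadjusted p under 0.05, except 1 that is not reported here. Values of *Dld*, *Cs*, *Mdh2*, *Pdk4*, *Idh3a*, *Idh1*, *Me1*, *Glud1*, *Ldhb*, *Map3k15*, *Slc34a1*, *Alb*, *Apoa2*, *Tat* and *Cyp7a1* are given outside this rule and were chosen after they had been seen.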

Additional observations from a re-analysis of the deposited data

How the results depend on the processing

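Of the 31 genes, 26 to 29 were below 0 under the 16 alternatives, against 28 in the analysis reported, and none rose at an adjusted or unadjusted p under 0.05. The number lower at an adjusted p under 0.05, 3 in the analysis reported, was 5 with DESeq2, without the filter and with the GC and length trend removed, and 1 with total counts only. Lower calls over all genes, 361 of 16017 in the analysis reported, were 743 of 29416, 1038 of 29418, 388 and 195 in the same order. Leaving out a library gave 0 to 2 members, and 34 to 571 genes overall. The number lower at an unadjusted p under 0.05 was 8 to 13 when a library was left out, and such calls over all genes were not counted. The median of the members was −0.11 with total counts only, which moved the median of all genes to 0.08, and −0.24 to −0.13 when a library was left out. *Mpc2* was called under 14 of the 16 alternatives, *Pdk2* under 12 and *Idh3b* under 6, while *Me3* was called under 4 and *Dlst* under 3. The causes were not tested.

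Only the replicate numbers link libraries across groups. Deviations of same-numbered libraries correlated at 0.07, 0.20 and 0.18, and each library correlated best with its own number, a hint from the data and not the design. With the replicate block, 3 members were lower at an adjusted p under 0.05, and 6 when the GC and length trend was also removed, beside 705 and 586 of all genes. The median was −0.20 with the replicate block. The genes around the pathway had 7 lower calls with it, 7 with DESeq2 and 6 without the filter, against 3. Lower calls over all genes also rose in these fits, to 705 of 16017, 743 of 29416 and 1038 of 29418, against 361 of 16017.

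Differences near 0 changed sign. So did the log2 ratios of *Ogdhl* to *Ogdh* and *Pdk4* to *Pdk2*, which differed by −0.45 and 0.31 with all 6 libraries. With total counts only, *Pdhb* was at 0.0093 and *Ogdh* at 0.043. When single libraries were left out, the differences ran from −0.11 to 0.035 for *Pdhb*, −0.55 to 0.10 for *Pdk4*, −0.018 to 0.056 for *Idh3a*, −0.047 to 0.016 for *Ogdh* and −0.28 to 0.016 for *Me1*. The log2 ratios ran from −0.11 to 0.053 for *Idh2* to *Idh1*, −0.031 to 0.052 for *Suclg2* to *Sucla2*, −0.83 to 0.0081 for *Ogdhl* to *Ogdh*, −0.031 to 0.58 for *Pdk4* to *Pdk2* and −0.13 to 0.15 for *Pdp2* to *Pdp1*. Counts were lowest for *Ogdhl*, with 18 to 73 counts.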
